A study of Mus musculus with 3 samples.

Results

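Droplet single cell RNA-seq of the developing mouse prostate was used here to ask where 9 genes of the Notch pathway are transcribed. They are the receptors *Notch1* and *Notch2*, the ligands *Jag1* and *Dll4*, the receptor modifier *Lfng*, and the targets *Hey1*, *Hey2*, *Heyl* and *Nrarp*. The members were chosen by name, and all 9 had a row among the 9781 gene rows kept. The samples were male urogenital sinus at E18.5 (embryonic) and prostate at postnatal days 14 and 35, with 1 library each and a disease state labelled normal, after dissociation with collagenase and TrypLE. The labels give no genotype, strain or number of animals, whereas the study's methods state mixed C57BL/6 and 129S1/SvImJ backgrounds for its mice, describe reporter mice (R26 mTmG) crossed to Osr1-Cre without tying a cross to these libraries, and the table holds a row for *EGFP*. All tissues came from 1 table of 14573 cells whose barcodes end in 1, 2 or 3, and no label or file header ties an ending to a library. The first set has as many cells as the study's text gives for the embryonic tissue after filtering, while the other sets equal neither of its other counts, and a cell number was not taken as a label. The endings are therefore called barcode sets 1, 2 and 3, ages are not compared, and no p-value or SD over samples can be given.

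Notch receptors sit in the membrane and are activated by ligands of the Jagged and Delta-like families on a touching cell. Proteases then release the intracellular part of the receptor, which joins the DNA-binding protein RBPJ in the nucleus and switches on genes of the Hes and Hey families of repressors and *Nrarp*, whose product limits the signal. Fringe enzymes such as the product of *Lfng* add sugar to the receptor and change which ligands it answers to. The pathway is known for artery and capillary sprouting in endothelium, for the coat of mural cells around vessels, and for the balance of basal and luminal cells in the prostate.

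Promoter sequences are shown for the 4 members whose rates stood out most by cell class and that have an entry in the RefSeq promoter table (build GRCm38.p6), which held 7 of the 9 members. *Hey1* and *Heyl* have no entry. Each is printed 5′ to 3′ on the strand of the gene, from 250 bases before the start of the gene to 50 after it. Capitals mark GTGGGAA, a core motif bound by RBPJ, or TTCCCAC, the same motif on the other strand.
*Dll4*, chr2:119325534-119325833, plus strand: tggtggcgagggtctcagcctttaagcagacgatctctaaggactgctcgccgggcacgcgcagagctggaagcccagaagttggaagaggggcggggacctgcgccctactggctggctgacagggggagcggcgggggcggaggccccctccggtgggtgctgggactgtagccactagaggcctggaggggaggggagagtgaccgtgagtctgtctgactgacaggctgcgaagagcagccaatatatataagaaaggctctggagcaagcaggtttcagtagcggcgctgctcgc
*Nrarp*, chr2:25180508-25180807, plus strand: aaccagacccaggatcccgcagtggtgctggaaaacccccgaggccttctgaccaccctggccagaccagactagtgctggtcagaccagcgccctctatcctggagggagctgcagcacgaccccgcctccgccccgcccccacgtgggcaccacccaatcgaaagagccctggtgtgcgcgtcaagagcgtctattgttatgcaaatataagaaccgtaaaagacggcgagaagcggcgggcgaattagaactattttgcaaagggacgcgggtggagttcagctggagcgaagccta
*Hey2*, chr10:30842734-30843033, minus strand: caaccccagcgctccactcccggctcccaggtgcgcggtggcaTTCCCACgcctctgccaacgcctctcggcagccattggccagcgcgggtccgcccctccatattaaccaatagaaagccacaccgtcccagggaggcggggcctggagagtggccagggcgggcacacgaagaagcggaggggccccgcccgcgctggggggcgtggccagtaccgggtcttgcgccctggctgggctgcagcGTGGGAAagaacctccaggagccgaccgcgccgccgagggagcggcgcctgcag
*Lfng*, chr5:140607091-140607390, plus strand: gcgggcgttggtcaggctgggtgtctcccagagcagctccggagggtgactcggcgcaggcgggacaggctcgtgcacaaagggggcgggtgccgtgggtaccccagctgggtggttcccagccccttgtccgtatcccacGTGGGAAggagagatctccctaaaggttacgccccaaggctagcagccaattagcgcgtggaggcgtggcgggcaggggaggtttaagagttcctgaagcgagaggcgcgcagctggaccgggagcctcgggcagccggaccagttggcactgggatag
*Hey2* held 2 matches, starting 207 and 4 bases before the start of the gene, and *Lfng* held 1, starting 109 bases before it. The first letters of the *Lfng* match are shared with the palindrome CACGTG (an E-box, the kind of motif bound by basic helix-loop-helix factors), which the *Nrarp* window also holds. Among all 32851 promoter windows of the same length, 6.38% held at least 1 match, 0.256% held at least 2, and 7.15% held CACGTG. No match was found in the windows of *Notch1*, *Notch2*, *Jag1*, *Dll4* and *Nrarp*. These are matches of letters, not binding sites.

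The sets differed in depth. Their median total was 19357 UMIs (unique molecular identifiers, each counting 1 captured RNA molecule) in set 1, against 1738 in set 2 and 1788 for set 3. The kept cells numbered 766, 5350 and 8360. Cells were clustered without the Notch pathway genes and named from marker lists, giving 10 classes and 1 unnamed cluster. All 12 endothelial markers with a row, all 5 pericyte markers, all 10 glial markers and all 13 leukocyte markers were carried by the cluster so named. Of the other lists, 9 of 12 fibroblast markers and 7 of 8 basal markers were carried by every cluster of their class, and the luminal-like cluster carried 4 of 5 luminal markers and also 6 of 8 basal markers. The cluster called other epithelium-like carried all 5 luminal markers and 6 of 8 basal markers, so the luminal-like values below cover only some of the cells with luminal markers. Both of these clusters also carried 2 of 2 urothelial markers, and *Upk1a* was among the leading genes of the other epithelium-like cluster. Endothelium-like cells numbered 38, 96 and 198 in sets 1, 2 and 3, pericyte-like cells 9, 29 and 126, glia-like cells 21, 186 and 236, and leukocyte-like cells 38, 25 and 177. Fibroblast-like cells came mostly from a mitotic cluster led by *EGFP*, *Tmem119* and *Sfrp2* in set 1 and from clusters led by *Fgf21* and *Dpt* in sets 2 and 3. Rates are given as CPM, which is a gene's UMIs in 1 class of 1 set divided by every UMI of those cells and scaled to 1000000, with an exact 95% Poisson interval that covers counting error only. Ratios compare a class with all other kept cells of the same set on the log2 scale. A gene was counted as 4-fold higher at a log2 ratio of at least 2, with at least 10 UMIs in the set and at least 3 in the class.

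**Figure D1:**
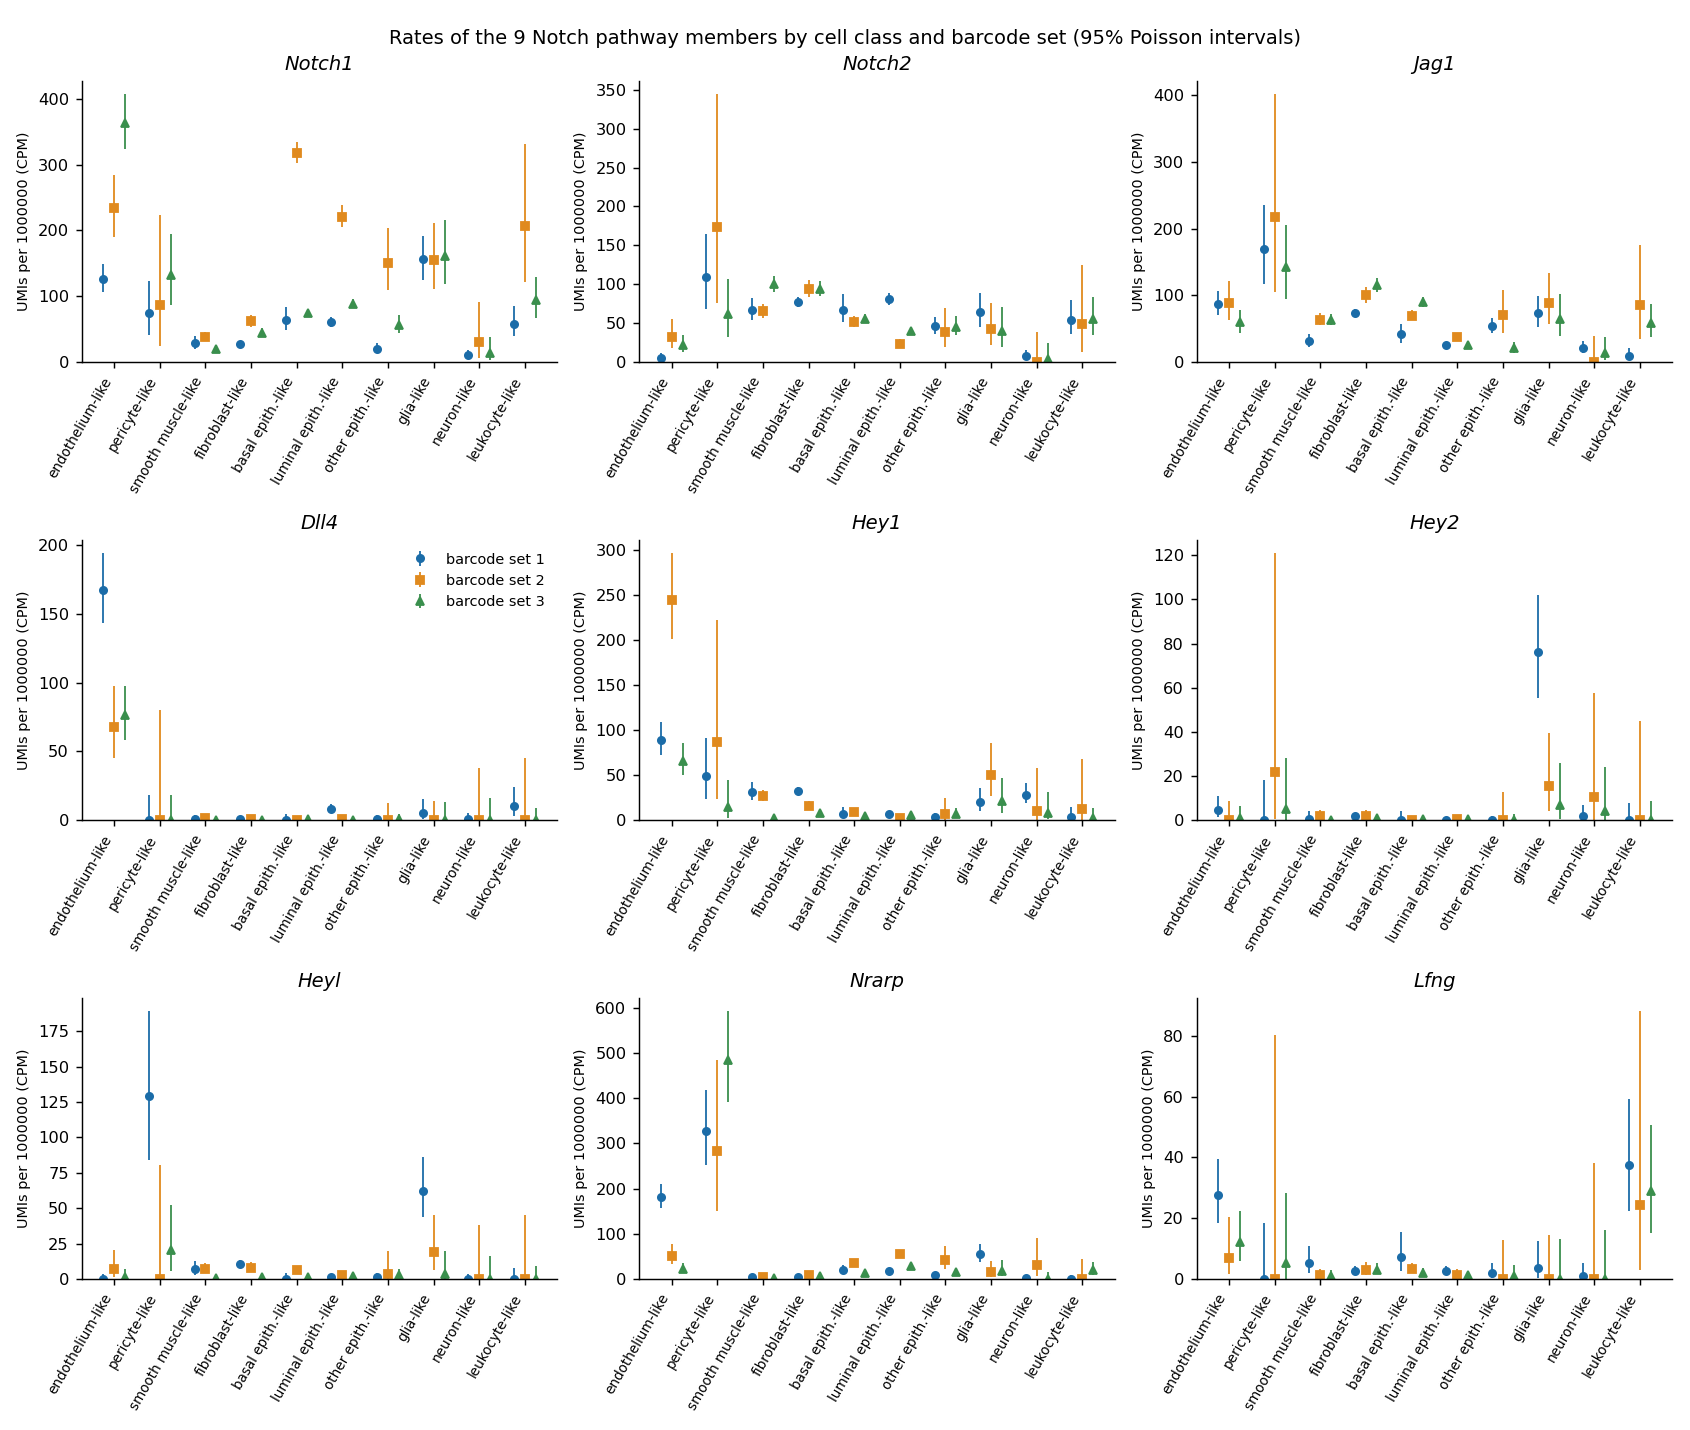
Rate of each member in UMIs per 1000000 (CPM, vertical axis from 0) in 10 cell classes (horizontal axis), with 1 point per barcode set and bars for exact 95% Poisson intervals of counting error. *Dll4* stands high in the endothelium-like class alone and *Nrarp* is highest in the pericyte-like class in each set, at 327, 283 and 484 CPM, while *Notch2* and *Jag1* are spread over most classes.

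*Notch1* (chr2:26457902-26503822, GRCm38.p6), the receptor with the best known role in both endothelium and epithelium, was found in every class. Its rate over all cells was 45.1 CPM (95% interval 42.3 to 48.1) in set 1, 179.6 CPM (173 to 186) in set 2 and 76.4 CPM (73.1 to 79.7) in set 3. Endothelium-like cells had 126 CPM (106 to 149.7) in set 1, 234 CPM (190.0 to 284) in set 2 and 364 CPM (324 to 407) in set 3. These rates lay above those of all other cells of the set by log2 ratios of 1.63, 0.39 and 2.43, so that only set 3 passed 4-fold. Other lists moved with the set in these cells, the epithelial list at 15.2, 364 and 659.7 CPM, the smooth muscle list at 75.04, 3789 and 1019 CPM and the fibroblast list at 446, 1939 and 1260.2 CPM, beside 6263, 5405 and 5084 CPM for the endothelial list. Their part in the endothelium-like values of *Notch1* and the other members was not tested. Glia-like cells had nearly equal values in the 3 sets, at 156, 155 and 161 CPM. The highest class was glia-like in set 1, where only the endothelium-like interval overlapped it, basal-like in set 2, where only the leukocyte-like interval did, and endothelium-like in set 3, where none did.

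In epithelium the *Notch1* rate depended on the set. Basal-like cells had 63.8 CPM (47.9 to 83.3) in set 1, 318 CPM (302 to 335) in set 2 and 74.5 CPM (68.1 to 81.3) in set 3. Luminal-like cells had 60.5, 221 and 88.9 CPM in the same order. The set 2 intervals lay wholly above those of sets 1 and 3 in both classes, and 60.6% of the basal-like cells of set 2 had a *Notch1* UMI against 19.8% in set 3, with median totals of 3542 and 2692 UMIs. After each cell was thinned to 900 UMIs these shares were 21.8% and 5.38%. Lists of other cell types were also highest in set 2. In basal-like cells the smooth muscle list summed to 109, 1977 and 798 CPM and the fibroblast list to 893, 2224 and 1807 CPM. In luminal-like cells the same lists summed to 79.1, 660.0 and 206 CPM and to 114, 747 and 294 CPM. The part of these lists in the epithelial *Notch1* values was not tested. The basal-like class joined 2 clusters, and set 2 was higher than set 3 in each, at 249 CPM against 57.8 CPM in set 3 for the cluster led by *Lgals7* and 335 against 86.2 CPM for the cluster led by *Lamb3*. Leukocyte-like cells of set 2 also had 207 CPM (121 to 332) of *Notch1*, from 17 UMIs. The 9 epithelial markers summed to 1281 CPM in those 25 cells, with 8 of 9 at 1 UMI or more, against 52.1 CPM in set 1 and 346 CPM in set 3, and to 2402 CPM in basal-like cells of set 2. In the same 25 cells the smooth muscle list summed to 6026 CPM and the fibroblast list to 1769 CPM, beside 4330.3 CPM for the leukocyte list. The part of these other lists in that *Notch1* value was not tested.

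*Notch2* (chr3:98013538-98150367), the other receptor measured, was low in endothelium-like cells. Its rate over all cells was 66.2, 55.1 and 59.7 CPM in sets 1, 2 and 3. In endothelium-like cells it was 4.75 CPM (1.54 to 11.1), 32.7 CPM (17.9 to 54.9) and 21.7 CPM (12.9 to 34.4), with log2 ratios to all other cells of -3.87, -0.77 and -1.49. All 3 intervals of those ratios lay below 0, the nearest reaching -0.01 in set 2. Pericyte-like cells had 109, 174 and 61.1 CPM, fibroblast-like cells 77.4, 93.8 and 93.5 CPM, and smooth muscle-like cells 67.02, 64.9 and 100.3 CPM. Luminal-like cells were above the other cells in set 1, with a rate of 80.5 CPM and a log2 ratio of 0.38, and below them in sets 2 and 3, at 23.4 and 39.9 CPM and log2 ratios of -1.45 and -0.80. No class had *Notch2* at 4-fold above the other cells in any set.

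*Jag1* (chr2:137081451-137116520), a ligand made by mural and stromal cells as well as epithelium, was highest in pericyte-like cells in each set. The rates there were 169 CPM (117 to 236), 218 CPM (105 to 401) and 143 CPM (94.8 to 206), and the log2 ratios of 1.72, 1.69 and 1.19 did not reach 4-fold. In set 1 every other class had an interval wholly below the pericyte-like one, whereas 5 classes overlapped it in set 2 and 3 classes did in set 3. Fibroblast-like cells had 73.8, 100.1 and 115 CPM, and endothelium-like cells 87.4, 88.8 and 59.2 CPM. Within the fibroblast-like class the cluster led by *Fgf21* reached 159 CPM (142 to 177) in set 3 and the cluster led by *Dpt* 63.6 CPM (52.1 to 77.05). The order was the same in set 2, at 130.3 and 92.8 CPM with intervals that overlapped, and the reverse in set 1, at 61.7 and 105 CPM. The cluster led by *EGFP*, which held 217 of the fibroblast-like cells of set 1, had 50.98, 48.03 and 91.9 CPM. Luminal-like cells were below all other cells in each set, at 25.5, 36.9 and 25.1 CPM, with log2 ratios of -1.25, -1.06 and -1.70. Basal-like cells lay above luminal-like cells in each set, at 41.4, 69.6 and 89.6 CPM, but in set 1 the intervals of 28.8 to 57.5 and 21.1 to 30.4 CPM overlapped.

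*Dll4* (chr2:119325784-119335666), the Delta-like ligand of sprouting and arterial endothelium, was found mostly in endothelium-like cells. They held 176 of its 237 UMIs in set 1, 29 of 42 in set 2 and 63 of 76 in set 3. The rates were 167 CPM (143 to 194), 67.7 CPM (45.4 to 97.3) and 76.1 CPM (58.5 to 97.4), against 3.13, 0.839 and 0.489 CPM in all other cells. The log2 ratio was 5.74 (5.31 to 6.18) in set 1, 6.34 (5.35 to 7.40) in set 2 and 7.28 (6.40 to 8.27) in set 3. No other member had a higher one in this class in any set. A *Dll4* UMI was seen in 60.5% of the endothelium-like cells of set 1, 21.9% of set 2 and 22.2% of set 3, at median totals of 20338, 3262 and 3090 UMIs. For comparison, 0 of 25, 0 of 998 and 4 of 1735 basal-like cells had one, where 0 cells allow shares of up to 12.0% and 0.301%. Pericyte-like cells had 0 UMIs in each set, which with 9, 29 and 126 cells allows shares of cells with a UMI of up to 33.3%, 10.3% and 2.38%. After thinning to 900 UMIs the endothelium-like shares were 16.2%, 5.62% and 5.56%. Outside endothelium the luminal-like cells of set 1 held 41 UMIs in 25 of 95 cells, a rate of 8.55 CPM (6.14 to 11.6) at a median total of 46833 UMIs, against 1.15 and 0.661 CPM in sets 2 and 3. In leukocyte-like cells of set 1, 5 UMIs came from 1 cell. The lncRNA gene *Gm14207* overlaps *Dll4* in the annotation, so reads of the pair could have been shared if strand was not used in counting.

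*Lfng* (chr5:140607341-140615545), the fringe enzyme whose promoter carries a match above, was a low gene with 222 UMIs in all. Leukocyte-like cells had its highest rate in each set, at 37.5 CPM (22.2 to 59.3), 24.4 CPM (2.95 to 88.1) and 29.04 CPM (15.01 to 50.7), from 18, 2 and 12 UMIs. The log2 ratios were 2.98 in set 1 and 3.76 in set 3, while the 2 UMIs of set 2 lie under the minimum of 3. Endothelium-like cells came next with 27.5, 7.01 and 12.1 CPM and log2 ratios of 2.67, 1.59 and 2.42. The set 1 value rests on 1 cell, without which its log2 ratio was 0.92. No other named class exceeded 7.09 CPM. The 12 endothelial markers, by coincidence, also summed to 37.5, 24.4 and 29.04 CPM in leukocyte-like cells, with 3, 2 and 5 of them at 1 UMI or more, against 5084 to 6263 CPM in endothelium-like cells.

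Among the targets, *Hey1* (chr3:8663359-8667038), a repressor induced by Notch in vessels, was highest among the 10 named classes in endothelium-like cells in every set. The unnamed cluster of set 1 was higher still, at 117 CPM. The rates were 89.3, 245 and 66.5 CPM, from 94, 105 and 55 UMIs, with log2 ratios of 1.87, 4.16 and 3.46. Among the named classes only the pericyte-like interval overlapped these, in sets 1 and 2, where it had 49.6 and 87.2 CPM from 10 and 4 UMIs. Smooth muscle-like cells had 31.3, 27.03 and 2.23 CPM and fibroblast-like cells 32.9, 16.1 and 8.45 CPM, so the rest of the set 1 cells carried a higher rate (24.5 CPM) than those of set 2 (13.7 CPM) and set 3 (6.02 CPM). Leukocyte-like cells had 2, 1 and 1 UMIs.

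*Nrarp* (chr2:25180758-25183339), which encodes a small ankyrin protein that dampens the Notch signal, was the member with the highest rate in pericyte-like cells against other cells. They had 327 CPM (253 to 417) in set 1, 283 CPM (151 to 485) in set 2 and 484 CPM (392 to 592) in set 3. These rates lay above all other cells by log2 ratios of 4.14 (3.74 to 4.53), 3.32 (2.40 to 4.11) and 4.92 (4.58 to 5.24), and no other class had an overlapping interval in any set. In set 1 a single cell gave 40.9% of the 66 UMIs and in set 2 a single cell gave 38.5% of the 13 UMIs. Without the cell with the most UMIs the log2 ratios were 3.46, 2.66 and 4.81. When only cells with at least 500 genes were kept, the set 2 ratio was 1.90 and no longer past 4-fold. *Nrarp* was among the 10 leading genes of the pericyte-like cluster, although it was kept out of the clustering features. After thinning, 33.3%, 23.8% and 24.5% of pericyte-like cells had a *Nrarp* UMI against 0%, 2.01% and 1.05% of basal-like cells. Smooth muscle-like cells, which share contractile genes with pericytes, had 3.72, 4.13 and 2.51 CPM. The smooth muscle list was nevertheless high in pericyte-like cells, at 4951, 5450.3 and 9788 CPM with 8 of 8 markers seen in each set. So was the fibroblast list, at 4519, 7783 and 2593 CPM with 11, 11 and 12 of 12 markers seen, beside 3577, 2333 and 3607 CPM for the pericyte list. The part of these lists in the pericyte-like values was not tested.

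Outside pericyte-like cells *Nrarp* varied by set. Endothelium-like cells had 182 CPM (157 to 210.1) in set 1, 51.4 CPM (32.2 to 77.8) in set 2 and 22.96 CPM (13.8 to 35.9) in set 3, with log2 ratios of 3.83, 0.85 and 0.25. Pericyte markers summed to 7.599 CPM in the endothelium-like cells of set 1, where *Nrarp* was highest, and to 208 and 266 CPM in those of sets 2 and 3, against 2333 to 3607 CPM in pericyte-like cells. Luminal-like cells had 17.5, 55.7 and 29.2 CPM of *Nrarp*, with log2 ratios of -0.38, 1.36 and 1.01. Fibroblast-like cells were low at 3.95, 8.05 and 5.38 CPM.

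*Hey2* (chr10:30832359-30842783), the other member with matches in its promoter, was scarce, with 112 UMIs in all. In set 1 the 21 glia-like cells held 44 of its 69 UMIs, a rate of 76.3 CPM (55.4 to 102) against 1.25 CPM in all other cells and a log2 ratio of 5.93 (5.19 to 6.70). In sets 2 and 3 glia-like cells had 4 UMIs (15.5 CPM) and 2 UMIs (7.17 CPM). The set 2 ratio of 3.67 (1.66 to 5.26) rests on 3 cells, and without the cell with the most UMIs the sum falls under 3. In sets 2 and 3 the interval of every class overlapped that of the class with the highest rate.

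*Heyl* (chr4:123233556-123249870), a related repressor used as a mark of Notch activity in mural cells, had its highest rates in pericyte-like and glia-like cells, while most of its UMIs lay in larger classes. Fibroblast-like cells held 83 of 186 UMIs in set 1 at 10.6 CPM, basal-like cells 30 of 97 in set 2 at 6.45 CPM, and luminal-like cells 20 of 50 in set 3 at 2.203 CPM. Pericyte-like cells had 26 UMIs in set 1 (129 CPM, 84.3 to 189), 0 in set 2 and 4 in set 3 (20.4 CPM, 5.55 to 52.2), with log2 ratios of 4.03 in set 1 and 3.59 in set 3. The 0 of 29 cells in set 2 allows a share of up to 10.3%. One cell gave 13 of the 26 UMIs of set 1, and without it the log2 ratio was 3.22. When the sets were clustered without integration the set 1 pericyte-like sum fell under 3 UMIs. Glia-like cells had 62.4, 19.3 and 3.59 CPM from 36, 5 and 1 UMIs, and the set 1 log2 ratio was 3.05. In set 1, 10 of 21 glia-like cells had a UMI of both *Hey2* and *Heyl*, at a median total of 21278 UMIs. In sets 2 and 3 only 3 and 2 of the 186 and 236 cells had *Hey2* and 5 and 1 had *Heyl*, at median totals of 1054 and 850.5 UMIs, too few at this depth to look for both in a cell. The pericyte and endothelial lists summed to 217 and 314 CPM in the glia-like cells of set 1, with 5 of 5 and 12 of 12 markers at 1 UMI or more, and the glial list to 6929 CPM. The fibroblast list summed to 3024 CPM in those cells, with 11 of 12 markers at 1 UMI or more, and to 7219.7 and 6342 CPM in the glia-like cells of sets 2 and 3, above the glial list there at 5024 and 5793 CPM. The part of these lists in the *Hey2* and *Heyl* values was not tested.

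Counted together, at most 4 of the 9 members were past 4-fold in a named class of any set, and the calls fell into 4 of the 10 named classes. Every member except *Notch2* and *Jag1* passed in at least 1 of them. In endothelium-like cells 3 of 9 members passed in set 1 (*Dll4*, *Nrarp* and *Lfng*), where 4.13% of all genes tested did, 2 in set 2 (*Dll4* and *Hey1*), where 4.27% did, and 4 in set 3 (*Notch1*, *Dll4*, *Hey1* and *Lfng*), where 5.52% did. In pericyte-like cells the counts were 2 (*Heyl* and *Nrarp*), 2 (*Hey1* and *Nrarp*) and 2 (*Heyl* and *Nrarp*), beside 1.96%, 1.79% and 4.29% of all genes. Without the cell with the most UMIs *Hey1* left the pericyte-like count of set 2, at a log2 ratio of 1.76. In glia-like cells the counts were 2 (*Hey2* and *Heyl*), 1 (*Hey2*) and 0, beside 2.89%, 4.05% and 5.01%. In leukocyte-like cells they were 1, 0 and 1 (*Lfng* each time), beside 5.60%, 2.02% and 4.88%, and 1 member of 9 cannot be told from that background. *Dll4* in endothelium-like and *Nrarp* in pericyte-like cells were the pairs that passed in all 3 sets. In the other 6 classes the highest log2 ratio of any member with at least 3 UMIs was 1.38, for *Notch1* in basal-like cells of set 2.

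**Figure D2:**
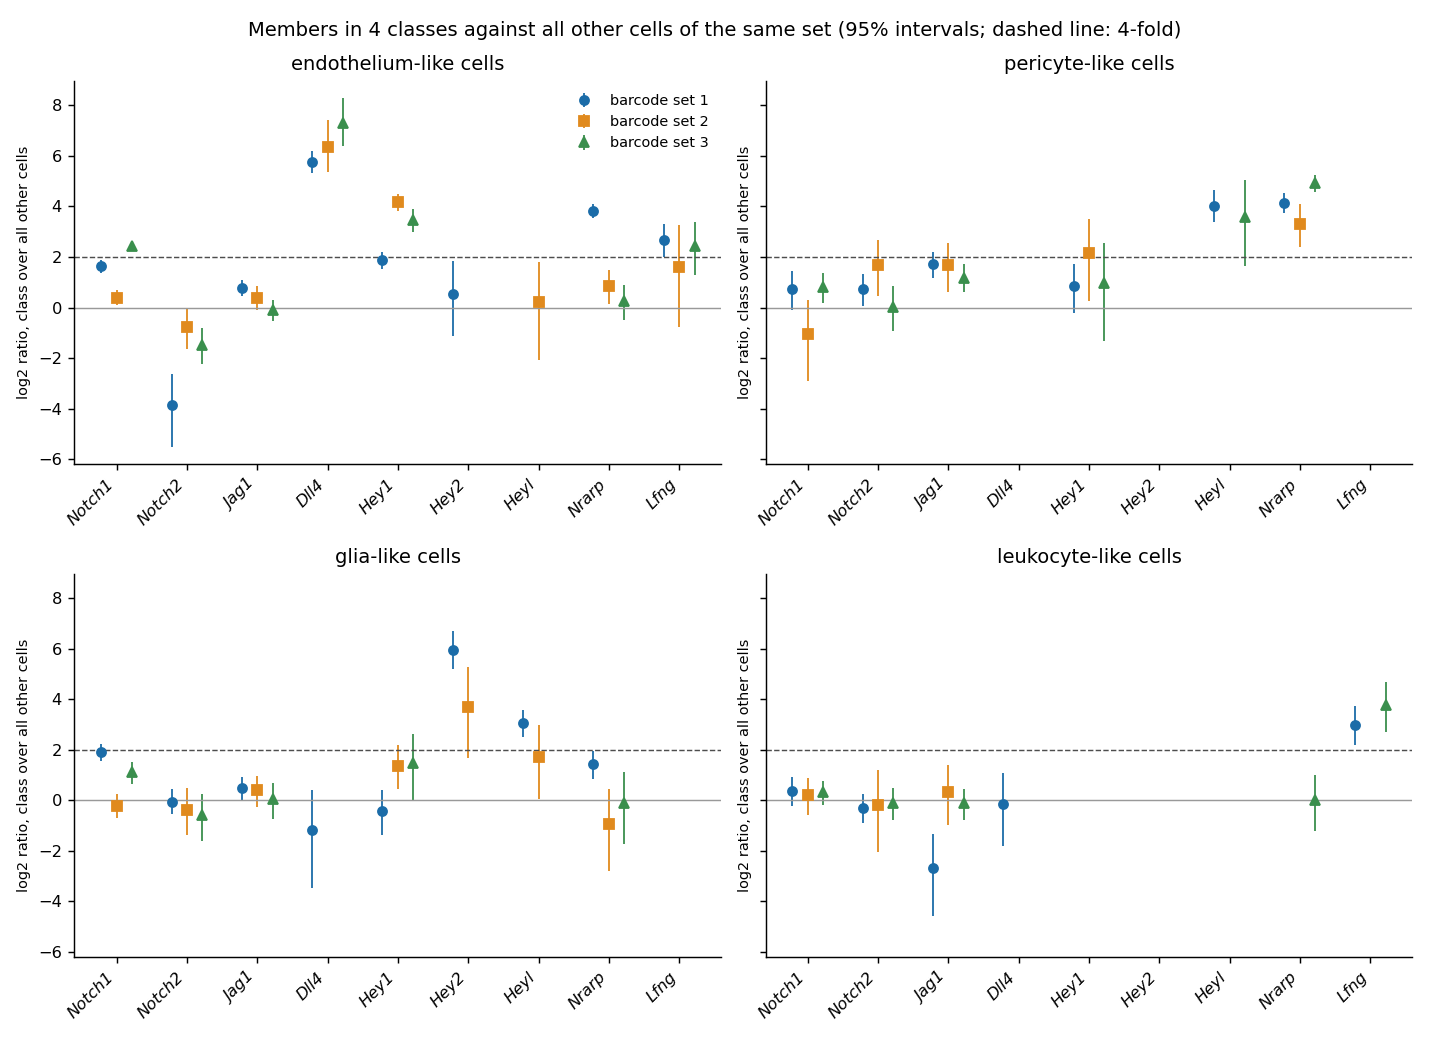
Log2 ratio of each member's rate in a class over all other kept cells of the same barcode set (vertical axis), for the 4 named classes in which a member passed 4-fold, with exact 95% intervals of counting error. Members with fewer than 3 UMIs in the class are not drawn, the dashed line marks 4-fold, and *Dll4* in endothelium-like cells lies between 5.74 and 7.28 in the 3 sets.

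Within the endothelium-like class, cells with a *Dll4* UMI were set beside cells without one. There were 23 and 15 such cells in set 1, 21 and 75 in set 2, and 44 and 154 in set 3. Cells with a UMI were deeper, with median totals of 40429, 5613 and 4304 UMIs against 3553, 2983 and 2724, so rates and not shares are given. *Selp*, the adhesion receptor of venular endothelium, was lower in cells with *Dll4* in each set, at 14.8 against 82.7 CPM, 68.1 against 257 CPM and 192 against 886 CPM. On the log2 scale this is -2.48 (-3.79 to -1.09) for set 1, -1.92 (-3.10 to -0.92) for set 2 and -2.20 (-2.67 to -1.77) for set 3. The *Selp* UMIs of the class lay in few cells, with 23 UMIs in 4 cells of set 1, 85 in 11 cells of set 2 and 564 in 72 cells of set 3, and the intervals do not cover differences between cells. *Selp* also gave 76 of the 143 UMIs and 517 of the 722 UMIs that the 6 venous markers summed to in the cells without *Dll4* of sets 2 and 3. That sum, at 242 against 483 CPM and 429.9 against 1238 CPM, is therefore no separate value from *Selp*. In set 1 it stood the other way, at 459.8 against 257 CPM, where 234 of the 434 UMIs of the cells with *Dll4* were of *Vwf*. *Ephb4*, the venous ephrin receptor, had log2 ratios of -0.03, 0.16 and 0.79, with all 3 intervals including 0. *Nr2f2*, a regulator of venous identity, had log2 ratios of -0.77, -0.16 and 0.17, with all 3 intervals including 0.

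Receptor and targets were higher in the cells with *Dll4* in some sets. *Notch1* had log2 ratios of 1.29 (0.13 to 2.76), 0.46 (-0.17 to 1.06) and 0.82 (0.48 to 1.16). *Hey1* stood at 98.5 CPM against 1 UMI in set 1, at 272 against 233 CPM in set 2 and at 127 against 41.1 CPM in set 3, with log2 ratios of 0.22 in set 2 and 1.63 (0.81 to 2.46) in set 3. For *Nrarp* the log2 ratio was 1.41 (0.40 to 2.64) in set 1, -0.25 (-1.89 to 1.18) in set 2 and 1.41 (-0.05 to 2.88) in set 3. The 7 arterial markers as a sum had a log2 ratio of -0.03 (-0.37 to 0.33) in set 1, 0.59 (0.22 to 0.95) in set 2 and 0.41 (0.10 to 0.72) in set 3. In set 1 its members went both ways, with *Sox17* at 319.9 against 661 CPM, a log2 ratio of -1.05 (-1.42 to -0.66). *Gja4*, a gap junction gene of arteries, had 190 UMIs from 6 cells against 0 there, a log2 ratio of at least 2.87. In set 3, *Sox17* had a log2 ratio of 0.73 and *Unc5b*, with 17 against 5 UMIs, of 3.02. *Efnb2*, *Cxcl12*, *Gja4* and *Bmx* had 0.05, 0.06, -0.01 and -0.48 in set 3, all with intervals including 0. *Gja5* had too few UMIs there for a ratio. The 12 general endothelial markers as a sum were also higher in the cells with *Dll4*, by 0.14 (0.02 to 0.26), 0.14 (0.01 to 0.27) and 0.59 (0.50 to 0.68) on that scale. All 12 of them had a ratio above 0 in set 3, where *Notch1* stood at 0.82 and the arterial sum at 0.41. Their part in the *Notch1* and arterial values was not tested.

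**Figure D3:**
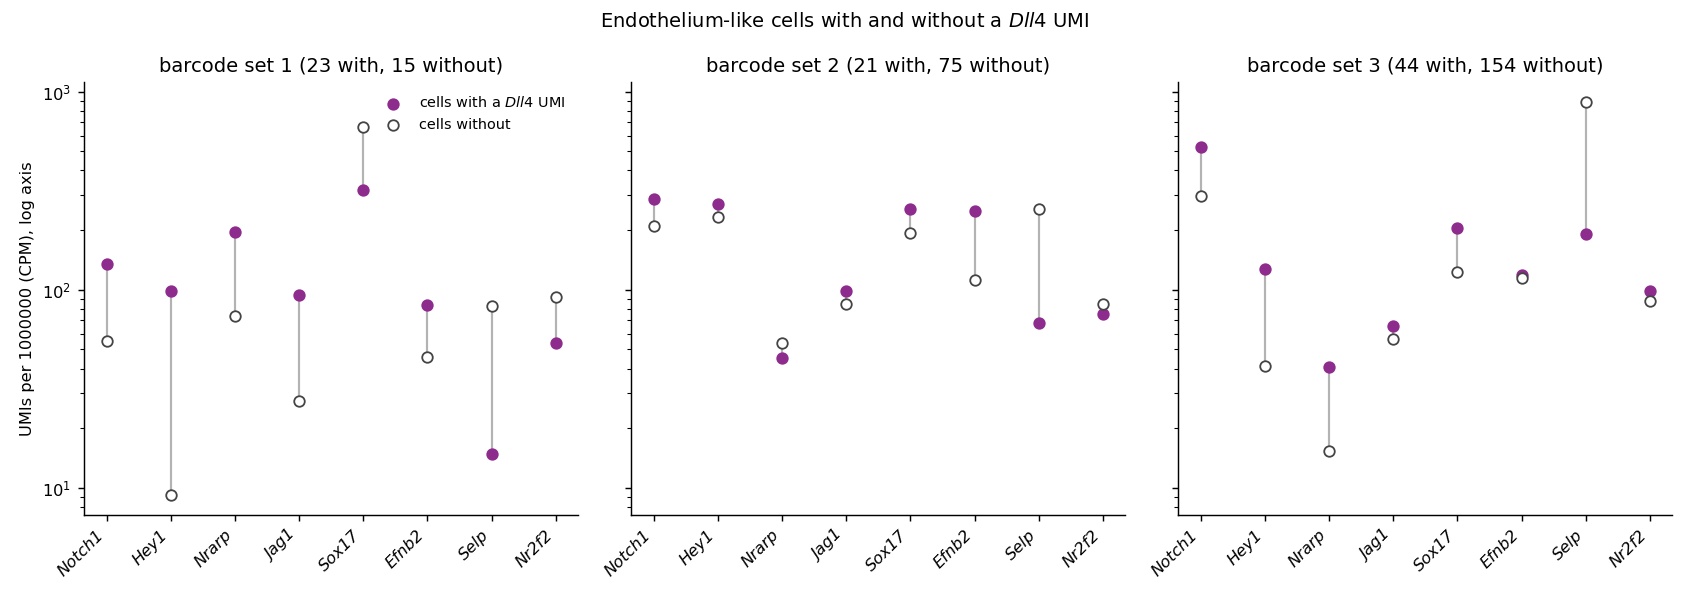
Rates in UMIs per 1000000 (CPM, log axis) of 8 genes in endothelium-like cells with a *Dll4* UMI (filled points) and without one (open points), in 1 panel per barcode set. The genes are 4 members and, from the arterial and venous lists, *Sox17*, *Efnb2*, *Selp* and *Nr2f2*. *Selp* is lower in the cells with *Dll4* in all 3 panels, and the open *Hey1* point of set 1 stands for 1 UMI.

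The 5 lymphatic markers as a sum stood at 3218 CPM in the cells with *Dll4* of set 3 against 298 CPM in those without, a log2 ratio of 3.43 (3.19 to 3.68), with 631 of the 786 UMIs from *Ccl21a*. In set 2 they stood the other way, with 2 UMIs against 144, and in set 1 at 17 UMIs against 1. In sets 2 and 3 these UMIs came largely from few cells. Only 2, 2 and 8 endothelium-like cells of sets 1, 2 and 3 had UMIs of at least 2 of the 5 lymphatic markers with a row. In set 1 the other 36 cells held more *Prox1* UMIs than those 2 cells, at 9 against 3. In set 3, *Dll4* had 91.3 CPM in those 8 cells and 74.8 CPM in the other 190, a log2 ratio of 0.29 whose interval includes 0, and *Notch1* had 335 and 366 CPM. *Lfng* had 4 UMIs in the 8 cells and 6 in the other 190, a log2 ratio of 2.95 (0.68 to 5.03). *Selp* had 0 UMIs in the 8 cells and 564 in the others. The minimum of 2 markers was chosen after the values were seen.

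Pericyte-like cells with a *Nrarp* UMI, numbering 8, 7 and 35, were compared in the same way with the 1, 22 and 91 cells without. Their median totals were 21452, 1158 and 2006 UMIs against 19463, 1298 and 1179. The smooth muscle list was higher in the cells with *Nrarp*, by 1.25 (0.81 to 1.72) in set 1, 0.65 (0.24 to 1.04) in set 2 and 0.83 (0.70 to 0.96) in set 3 on the log2 scale. The pericyte list went both ways, at 0.55 (0.13 to 1.00), -0.33 (-1.11 to 0.38) and -0.60 (-0.84 to -0.36). With only 1 cell lacking *Nrarp* in set 1, that set adds a single cell to the comparison.

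The wider Notch list had 23 more genes with a row, tested in the same way, of which 23, 21 and 23 reached 10 UMIs in sets 1, 2 and 3. Of the 23 genes, 6 were past 4-fold in a class in at least 2 sets, and 13 were past it in no class of any set. In neuron-like cells 2, 4 and 5 of these genes passed in sets 1, 2 and 3, where 7.45%, 9.72% and 12.7% of all genes tested did. In fibroblast-like cells 1, 1 and 2 passed, where 5.55%, 3.44% and 6.58% did, so that these counts lie near the background. In endothelium-like cells 1, 2 and 3 passed, and in leukocyte-like cells 2, 0 and 2, beside the shares given above. *Neurl3*, a ubiquitin ligase of a family that acts on ligands, was among the 6 in endothelium-like cells, with 71.2, 86.4 and 166 CPM against 3.13, 7.61 and 9.41 CPM in other cells, and passed in leukocyte-like cells of sets 1 and 3. *Dner*, a non-canonical ligand, passed in fibroblast-like cells of each set, with 44.3, 63.3 and 85.1 CPM, and in neuron-like cells of sets 2 and 3, at 197 and 187 CPM. The other 4 passed in neuron-like cells in at least 2 sets. They were the ligand *Dll3* with 18.2 CPM in set 1 and 13.02 CPM in set 3, the presenilin gene *Psen2* with 41.4 and 56.4 CPM in sets 2 and 3, the repressor *Hes6* with 62.2 and 26.03 CPM in sets 2 and 3, and the Deltex gene *Dtx1* with 27.8, 51.8 and 21.7 CPM. *Dtx1* also passed in endothelium-like cells of sets 2 and 3, at 14.01 and 12.1 CPM. The neuron-like class held 25, 12 and 17 cells, and the UMI sums behind sets 2 and 3 were 3 to 43.

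Likeness was measured as Pearson's r of log2(CPM + 5) over the 27 class-by-set sums with at least 20 cells, among 7876 genes with at least 50 UMIs. That minimum left out the pericyte-like cells of set 1 and the neuron-like cells of sets 2 and 3. The 27 sums share libraries and depth, so r is a description. *Dll4* had the closest companions, *Rasip1* (r = 0.968), *Sox17* (0.967) and *Vwf* (0.963), and *Lfng* followed with *Vsir* (0.938), *Arhgap25* (0.915) and *Il2rg* (0.910). *Hey1* was most like *Chst1* (0.840), *Tspan18* (0.818) and *Dysf* (0.815). *Jag1* was most like the collagen genes *Col4a2* (0.824) and *Col4a1* (0.811) and *Mfge8* (0.807). *Hey2* had *Olfml2a* (0.819), *Ttyh1* (0.815) and *Fabp7* (0.814). *Nrarp* had *Apold1* (0.789), *Hoxa7* (0.759) and *Slc25a25* (0.750). *Heyl* had *Sox5* (0.770), *Ajap1* (0.732) and *AI464131* (0.731). The receptors were most like *Iqgap1* (0.758), *Gab1* (0.748) and *Pon2* (0.732) for *Notch1*, and *Pid1* (0.721), *Cd63* (0.692) and *Arhgap10* (0.688) for *Notch2*. Between members, r was highest for *Hey2* with *Heyl* (0.64) and *Dll4* with *Hey1* (0.60), and lowest for *Notch2* with *Dll4* (-0.55). The pericyte-like cells of set 1, left out of r, had the highest *Heyl* rate of that set but 0 UMIs of *Hey2*.

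**Figure D4:**
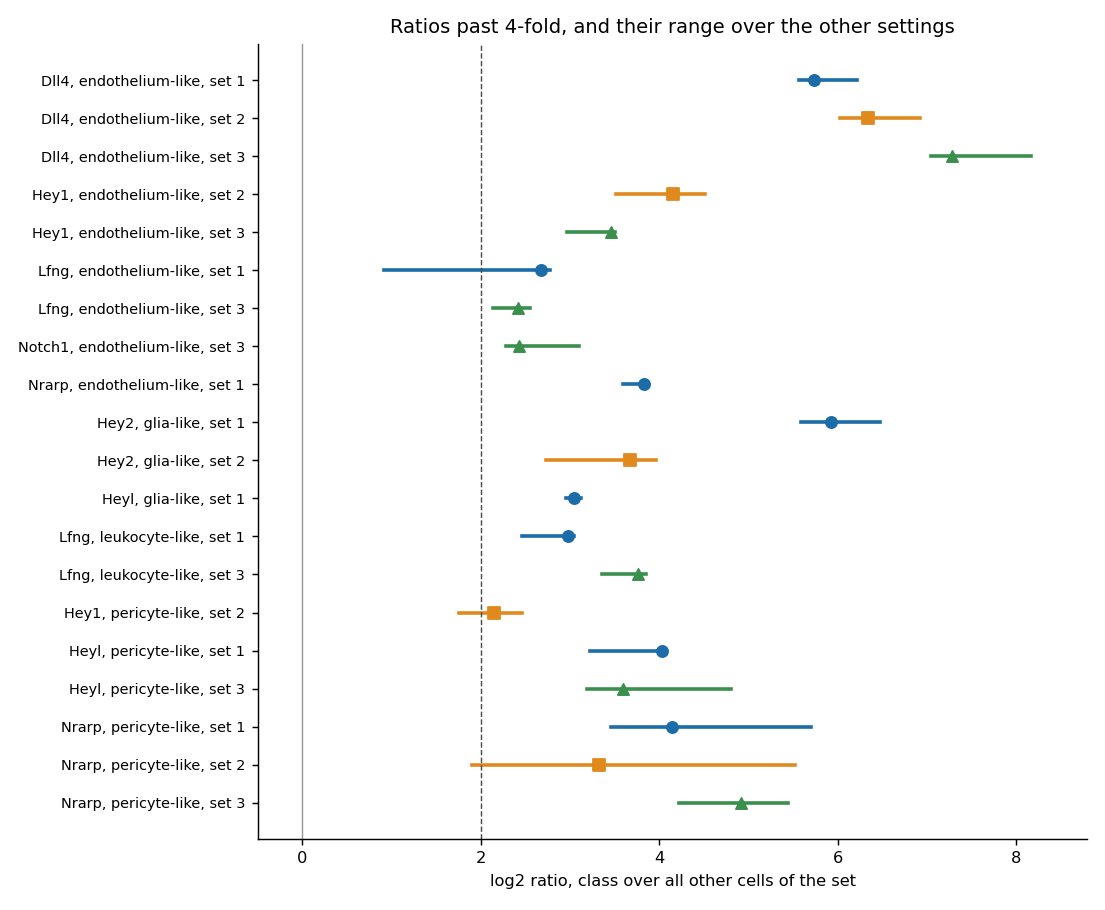
Log2 ratio over all other cells (horizontal axis) for the 20 combinations of member, named class and set past 4-fold, with a point for the value reported and a line from the lowest to the highest value over up to 11 other settings. The dashed line marks 4-fold, and 3 of the 20 lines cross it, those of *Lfng* in endothelium-like cells of set 1 (0.92 at the low end) and of *Hey1* (1.76) and *Nrarp* (1.90) in pericyte-like cells of set 2.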

How the data were processed

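Mouse tissues from 3 ages, with 1 library each, were measured by droplet 3' single cell RNA-seq. The submitters' processing notes name Cell Ranger 3.1.0 and mm10, and the study's methods add transgene sequences and filters on multiplets and mitochondrial RNA. Labels and methods name different reagent versions, and no treatment of free RNA is stated. The values deposited by the authors are natural log values, ln(1 + 10000 × UMIs / total UMIs of the cell), up to 7.94. They were turned back into UMIs, and all 11120281 values above 0 were whole within 0.05. The table was held in part. A last row that was filled for 7365 cells, and 2 rows with 1 shared name, were left out, and the other pathway genes without a row are not analysed here. Rows held 52.7%, 50.4% and 49.4% of the UMIs of sets 1, 2 and 3. Barcodes found in more than 1 set numbered 14. Cells with fewer than 200 genes (97, all in set 3) were left out.

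Clustering followed the study's steps (integration over 20 dimensions, here on 2000 features, cell cycle scores regressed, 30 principal components, neighbours over 20 dimensions, resolution 0.5) in Seurat 5.3.0 (R 4.3.3), with 32 pathway genes kept out of the features. A marker counted for a cluster if 10% or more of the cells there had it and its CPM reached 2 times the median over clusters (never set below 1 CPM). Each cluster took the list with the highest share of such markers, 3 or more, unless another list had more among its 10 leading genes (5 CPM added). The unnamed cluster carried the smooth muscle list in full but had *Ttn* and *Myod1* of the striated muscle list among its leading genes. Epithelial lists were scored as one, and such a cluster was called basal-like or luminal-like where that list carried 3 or more markers and led the other 2 among the leading genes. The mitotic, lymphatic, arterial and venous lists named no cluster. This scoring was set after clustering, and so was the minimum of 3 UMIs in a class. The unnamed cluster (13, 132 and 190 cells) stayed among the other cells. Scrublet (scanpy 1.11.5) put 3, 0 and 0 cells over its threshold, and no cell was removed. The methods name a filter on multiplets, and the table holds fewer cells than they give before filtering, so cells had been removed from it. How well multiplets were removed was not tested, and doublets may remain.

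Rates have exact Poisson intervals, shares exact binomial (Clopper-Pearson) ones and ratios intervals from the binomial split of 2 sums, all at 95%, and cover counting error alone. Sums of 0 to 2 UMIs entered ratios as 3. No p-value was computed. For a share of 0, 3 cells give the limit. Thinning drew 900 UMIs per cell and left out 7, 342 and 693 cells. The text names the 9 members, other pathway genes past 4-fold in a class in at least 2 sets, and the 3 genes most like each member. *Selp*, *Vwf*, *Nr2f2*, *Ephb4*, *Sox17*, *Efnb2*, *Gja4*, *Gja5*, *Unc5b*, *Cxcl12*, *Bmx* and *Prox1* were singled out from the venous, arterial and lymphatic lists after their values were seen. Members and lists were chosen with earlier results of these data known. Recovery, ratios and thinning were tested on simulated data. Tried in turn were 10 alternatives and 1 more chosen after seeing the data, which leaves out the cell with the most UMIs of the gene.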

Additional observations from a re-analysis of the deposited data

How the results depend on the processing

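Over 11 alternatives, 204 of 208 recomputed values of the combinations past 4-fold kept the call and all 208 ratios stayed above 0. The 208 include 20 values with no UMI minimum. Those could not lose the call, because the combinations had already met the minimum of 10 UMIs in the set. Values at resolution 1.0 were nearly all unchanged. Of the 4 that lost the call, 3 fell below a log2 ratio of 2, *Lfng* in endothelium-like cells of set 1 and *Hey1* and *Nrarp* in pericyte-like cells of set 2. The other was *Dll4* in endothelium-like cells of set 2 after thinning, whose ratio was 6.79 but whose UMIs in the set fell under the minimum of 10. In 12 more the class sum fell under 3 UMIs, and these are not among the 208. Some ratios moved both ways. For *Nrarp* in pericyte-like cells of set 1 the reported log2 ratio was 4.14, with 3.46 as the lowest and 5.70 as the highest. In set 2 the reported value was 3.32, with 1.90 as the lowest and 5.52 as the highest. Counts of members past 4-fold kept within 1.5 times of the reported count in 116 of 132 cases. The 12 cases with no UMI minimum could not change, because every member met that minimum in each set. A count of members does not track which members passed. In pericyte-like cells of set 1 without integration, *Heyl* fell under 3 UMIs and the count was still scored as kept. The exceptions follow. With cells thinned to 900 UMIs the count was 1 in endothelium-like cells of set 2 and pericyte-like cells of sets 1 and 2. It was 1 in glia-like cells of set 1, with *Notch1* in place of *Hey2* and *Heyl*, whose sums fell under 3 UMIs. In glia-like cells of set 2 and leukocyte-like cells of set 1 it was 0. Keeping only cells with 500 genes or more gave 0 in pericyte-like cells of set 2. It was 2 in glia-like cells of set 2 without integration, with the top 5% of doublet scores left out, with the mean over cells of each cell's own rate, and with Notch pathway genes among the features, *Heyl* joining *Hey2* each time. In glia-like cells of set 3 it was 1 with the mean over cells (*Hey1*) and 1 with 1 UMI added to both sums (*Hey2*), and the latter also gave 1 in leukocyte-like cells of set 2 (*Lfng*). Without the cell with the most UMIs it was 1 in pericyte-like cells of set 2 and 0 in glia-like cells of set 2. Apart from the left-out cell, the cause of these changes was not tested.

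No paired analysis was possible because each tissue had 1 library, and no replicate was left out for the same reason. Depth limits the low members: after thinning, 8 of the 20 combinations had a class sum under 3 UMIs.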

Other observations

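The unnamed cluster, led by the myogenic regulators *Myod1*, *Msc* and *Myf5*, had 3 of 9 members past 4-fold in set 1 (*Hey1*, *Heyl* and *Lfng*), where 1.29% of all genes tested passed, and 0 in sets 2 and 3, where 0.356% and 0.415% did. Its 13 cells of set 1 had 117 CPM (92.1 to 147) of *Hey1*, the target repressor, with a log2 ratio of 2.23 over the other cells and a UMI in 12 of the 13 cells. They also had 39.1 CPM (25.3 to 57.6) of *Heyl*, with a log2 ratio of 2.27, and 21.9 CPM (11.96 to 36.7) of *Lfng*, with a log2 ratio of 2.13. In sets 2 and 3 the cluster held 132 and 190 cells, with 16.3 and 8.05 CPM of *Hey1*, 6.53 and 1.15 CPM of *Heyl*, and 3.27 and 3.45 CPM of *Lfng*. *Notch1* in this cluster was near the other cells in each set, at log2 ratios of -0.55, 0.01 and -0.25. The cluster also carried 8 of 8 smooth muscle markers, 6 of 8 basal markers, 5 of 9 epithelial markers and 4 of 12 fibroblast markers. The smooth muscle list summed to 1315, 9001 and 8633 CPM in its cells of sets 1, 2 and 3, the basal list to 486, 2885 and 4066 CPM, and the fibroblast list to 1451, 5821 and 4217 CPM. The part of these lists in its member values was not tested.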
